A study of Mus musculus with 8 samples.

Results

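The genes described here are the TGF-beta ligand Tgfb1, its receptors Tgfbr1 and Tgfbr2, the signal transducers Smad2, Smad3, Smad4 and Smad7, and the nuclear corepressors Ski, Skil and Tgif1, taken by symbol from a table of 26848 genes. All 10 were found, and all 10 passed the filter on low counts. RAW264.7, a transformed mouse line with macrophage features that came from a virus-induced tumour, was grown on polyetheretherketone (PEEK), a plastic used in orthopaedic implants, and its messenger RNA was sequenced. The groups were 4 libraries from cells on nano/microstructured PEEK (structured 1 to 4) and 4 from cells on smooth PEEK (smooth 1 to 4). Both groups share the line and no further treatment is given in the labels, nor is a culture time. A transformed line lacks the other cells that surround an implant. The labels number biological replicates without stating separate cultures, and p-values here reflect only how far these libraries spread, which may be technical.

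TGF-beta is secreted bound to its own propeptide and is inactive until released. The freed ligand binds the type II receptor, which phosphorylates the type I receptor, which in turn phosphorylates Smad2 and Smad3; these join Smad4 and enter the nucleus. Smad7 blocks the receptor, while Ski, its relative Skil (SnoN) and the homeodomain protein Tgif1 hold SMAD-bound genes silent. Macrophages both make TGF-beta and respond to it, and TGF-beta stored in bone matrix takes part in bone remodelling.

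The libraries held 64479829 to 73098735 count units, and a fragment of paired reads may count as more than 1 unit. CPM below is a gene's count scaled to a library total of 1000000 units. All 10 macrophage markers were above 0 in at least 1 library, with a summed level of 6460 to 6607 CPM on structured PEEK and 6117 to 6547 CPM on smooth PEEK. However, Mertk stayed at or near 0, Fcgr3 at 2.25 to 3.52 CPM and Adgre1 at 9.69 to 14.2 CPM. Markers of other cell types were present as well, from under 1 CPM to 365 CPM in sum. The 10 neutrophil markers, all above 0 in at least 1 library, summed to 14.8 CPM in structured 1, to 50.5 to 53.9 CPM in structured 2 to 4 and to 0.438 to 1.92 CPM on smooth PEEK, where Ngp, Ltf, Mmp8, Elane, Mpo and Retnlg were at 0. The 10 hepatocyte markers, none at 0 throughout, summed to 92.0 to 365 CPM on structured and 59.6 to 246 CPM on smooth PEEK, and the 8 skeletal muscle markers, likewise, to 1.47 to 7.43 CPM on structured and 8.42 to 42.9 CPM on smooth PEEK. The part of the hepatocyte, skeletal muscle and neutrophil markers in the results below was not tested. Fits without the libraries highest in hepatocyte or skeletal muscle markers left those markers split by surface. The sums of the neutrophil and of the skeletal muscle markers did not overlap between the surfaces, so their part cannot be told apart from surface here. The 5 platelet markers summed to at most 0.606 CPM on structured and 0.721 CPM on smooth PEEK, and the 5 fibroblast markers to at most 2.34 CPM on structured and 1.86 CPM on smooth PEEK. Of 4 T cell markers, 2 were matched, and these summed to at most 0.332 CPM on structured and 0.277 CPM on smooth PEEK.

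Transcripts of the ligand and of 2 corepressors were lower on structured PEEK. Ski was 18.9% lower, Tgif1 18.1% lower and Tgfb1 12.1% lower. The other 7 members did not pass the test: both receptors, Smad3, Smad4, Smad7 and Skil had negative log2 fold changes, and Smad2 a small positive one. Thus 3 of 10 members were called lower by edgeR's quasi-likelihood test at a Benjamini-Hochberg adjusted p under 0.05, against 2.75% of the 16006 genes tested, and 0 members were called higher, against 1.01%; in either direction 3.75% of all genes were called. No member had a positive difference at an unadjusted p under 0.05. DESeq2 called 5 members lower, against 5.5% of all genes, and 0 higher, against 3.45%. With the trend of each library on GC content and exon length removed, edgeR called 2 members lower, against 1.01%, and 0 higher, against 0.806%. These were Ski and Tgif1, and Tgfb1 did not pass. Ski was called in 20, Tgif1 in 17 and Tgfb1 in 11 of 23 alternative fits. Negative values were found for 9 of 10 members and 48.8% of all genes tested. The median log2 fold change, structured minus smooth, was -0.19 over the members and 0.0056 over all genes tested. In bulk RNA fewer cells making a transcript and less transcript per cell cannot be told apart.

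**Figure D1:**
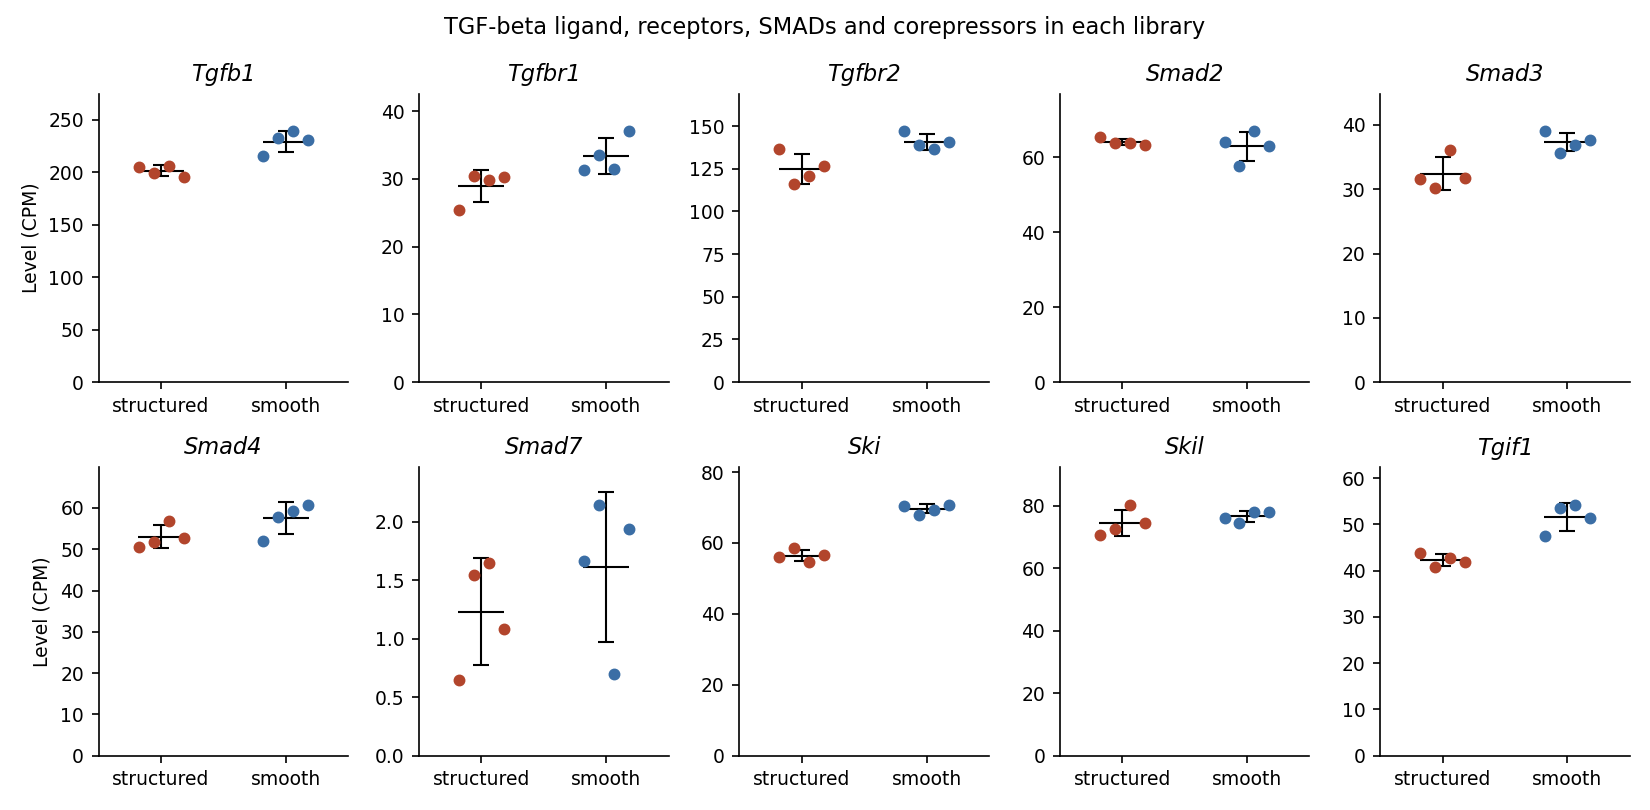
Level in CPM of each of the 10 members in every library, with structured PEEK on the left and smooth PEEK on the right of each panel; points are libraries and bars are the mean and SD (n = 4 per group). The groups stand apart for Tgfb1, Tgfbr1, Ski and Tgif1, and overlap for the other 6 members.

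The ligand came first in abundance. Tgfb1 encodes TGF-beta 1, the main form made by immune cells, and lies on chromosome 7 from 25687002 to 25705077 (plus strand, ENSMUSG00000002603). It stood at 205, 199, 206 and 196 CPM in structured 1 to 4, against 215, 233, 239 and 231 CPM in smooth 1 to 4. Every structured library was below every smooth library, and smooth 1 was the closest of its group to them. The log2 fold change was -0.19 ± 0.04 (SE), with a 95% interval from -0.27 to -0.10 and an edgeR adjusted p of 0.0324. This call was lost with structured 1, structured 2, structured 4, smooth 2, smooth 3 or smooth 4 left out, at adjusted p-values up to 0.107. Removal of the GC and length trend gave -0.15 on the log2 scale (edgeR adjusted p = 0.101). The other TGF-beta ligands, looked at after their values were seen, were close to absent: Tgfb2 was at 0 in every structured library and reached 0.277 CPM in smooth 4, and Tgfb3 did not exceed 0.213 CPM in any library.

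The receptors had values of similar size that did not pass. Tgfbr2, the type II receptor that binds the ligand first, was at 137, 116, 121 and 126 CPM in structured 1 to 4, against 147, 139, 137 and 140 CPM in smooth 1 to 4. Structured 1 reached the lowest smooth library, so the groups touched. The log2 fold change was -0.17 ± 0.05 (SE; 95% interval -0.28 to -0.06; edgeR adjusted p = 0.0871). Tgfbr1, the type I receptor kinase, was at 25.5, 30.4, 29.8 and 30.2 CPM in structured 1 to 4, against 31.3, 33.5, 31.5 and 37.0 CPM in smooth 1 to 4. The groups did not overlap, yet structured 1 lay well below the rest of its group and smooth 4 above the rest of its own. Its log2 fold change was -0.20 ± 0.07 (95% interval -0.36 to -0.04; edgeR adjusted p = 0.155). Levels did not overlap, with structured lower, for 4 of 10 members, against 7.03% of all genes tested, and with structured higher for 0 members, against 5.19%.

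The 2 receptor-activated SMADs differed from each other in their values. Smad3, which binds DNA directly, was at 31.6, 30.2, 36.1 and 31.8 CPM in structured 1 to 4, against 39.0, 35.7, 36.9 and 37.7 CPM in smooth 1 to 4. Structured 3 alone lay within the smooth range. Smad3 had a log2 fold change of -0.20 ± 0.06 (95% interval -0.34 to -0.07; edgeR adjusted p = 0.0915), and without structured 3 it was -0.26 with an adjusted p of 0.0297. Smad2, whose common form does not bind DNA by itself, was at 65.3, 63.9, 63.8 and 63.3 CPM in structured 1 to 4, against 64.1, 57.7, 67.0 and 63.0 CPM in smooth 1 to 4. All 4 structured values lay inside the smooth range. The log2 difference of 0.026 ± 0.049 had a 95% interval from -0.08 to 0.13 (edgeR adjusted p = 0.853), and without smooth 2 it was -0.012. Within a library, the ratio of Smad3 to Smad2 by FPKM, a length-scaled level, averaged 0.802 ± 0.0666 on structured and 0.942 ± 0.0479 on smooth PEEK (SD, n = 4 each), with overlapping ranges. The difference in response between both genes was not tested.

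Smad4, the partner shared by all receptor-activated SMADs, was at 50.6, 51.8, 57.0 and 52.7 CPM in structured 1 to 4, against 51.9, 57.9, 59.4 and 60.8 CPM in smooth 1 to 4. Smooth 1 lay among the structured libraries, and the other 3 smooth libraries lay above all of them. Its log2 fold change was -0.12 ± 0.06 (95% interval -0.25 to 0.01; edgeR adjusted p = 0.32). Smad7, the inhibitor induced by the pathway itself, was the scarcest member, at 45 to 152 count units per library. It was at 0.649, 1.55, 1.65 and 1.09 CPM in structured 1 to 4, against 1.67, 2.15, 0.698 and 1.94 CPM in smooth 1 to 4. Smooth 1, 2 and 4 lay above every structured library, and smooth 3 near the lowest of them. The interval of its log2 fold change ran from -1.20 to 0.43 (edgeR adjusted p = 0.662), a range that holds 0 and also values as large as those of Ski and Tgif1.

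Ski, the corepressor that displaces coactivators from SMAD complexes, had the smallest p of the members. It was at 56.1, 58.5, 54.6 and 56.5 CPM in structured 1 to 4, against 70.4, 68.0, 69.4 and 70.8 CPM in smooth 1 to 4. Every structured library was well below every smooth library, and each group was tight. The log2 fold change was -0.30 ± 0.04 (SE; 95% interval -0.39 to -0.21; edgeR adjusted p = 0.00689). The Ski call held in all 8 fits that omit one library, at adjusted p-values of 0.0102 to 0.0293, and after removal of the trend (-0.23, edgeR adjusted p = 0.033). Ski lies on chromosome 4 from 155154075 to 155222535 (minus strand, ENSMUSG00000029050).

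Tgif1, a homeodomain repressor that recruits histone deacetylases to SMAD complexes, was at 43.9, 40.8, 42.8 and 41.8 CPM in structured 1 to 4, against 47.5, 53.6, 54.3 and 51.3 CPM in smooth 1 to 4. The groups did not overlap, and smooth 1 was again nearest to the structured libraries. The log2 fold change was -0.29 ± 0.05 (SE; 95% interval -0.40 to -0.17; edgeR adjusted p = 0.0183), and -0.30 after removal of the trend (edgeR adjusted p = 0.0237). The call was lost without structured 2, structured 4, smooth 2 or smooth 3, at adjusted p-values up to 0.0681. Tgif1 lies on chromosome 17 from 70844205 to 70851734 (minus strand, ENSMUSG00000047407).

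Skil, the close relative of Ski, did not show the same value. It was at 70.7, 72.4, 80.3 and 74.5 CPM in structured 1 to 4, against 75.9, 74.4, 77.9 and 78.0 CPM in smooth 1 to 4. Structured 3 held the highest level of all 8 libraries. The log2 fold change was -0.04 ± 0.05 (95% interval -0.14 to 0.06; edgeR adjusted p = 0.738). By FPKM, the ratio of Ski to Skil within a library was 1.38, 1.41, 1.19 and 1.32 in structured 1 to 4, against 1.62, 1.59, 1.55 and 1.58 in smooth 1 to 4. By that measure Ski exceeded Skil throughout, but by less on structured PEEK. Whether Ski and Skil differed in response was not tested. The ratio of Tgif1 to Skil was 1.07, 0.971, 0.917 and 0.966 in structured 1 to 4, against 1.08, 1.24, 1.20 and 1.13 in smooth 1 to 4. By FPKM, Tgif1 was thus above Skil in every smooth library and in structured 1 alone of its group. By CPM, without length scaling, Skil was above both Ski and Tgif1 in all 8 libraries. A difference in response between Tgif1 and Skil was not tested.

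**Figure D2:**
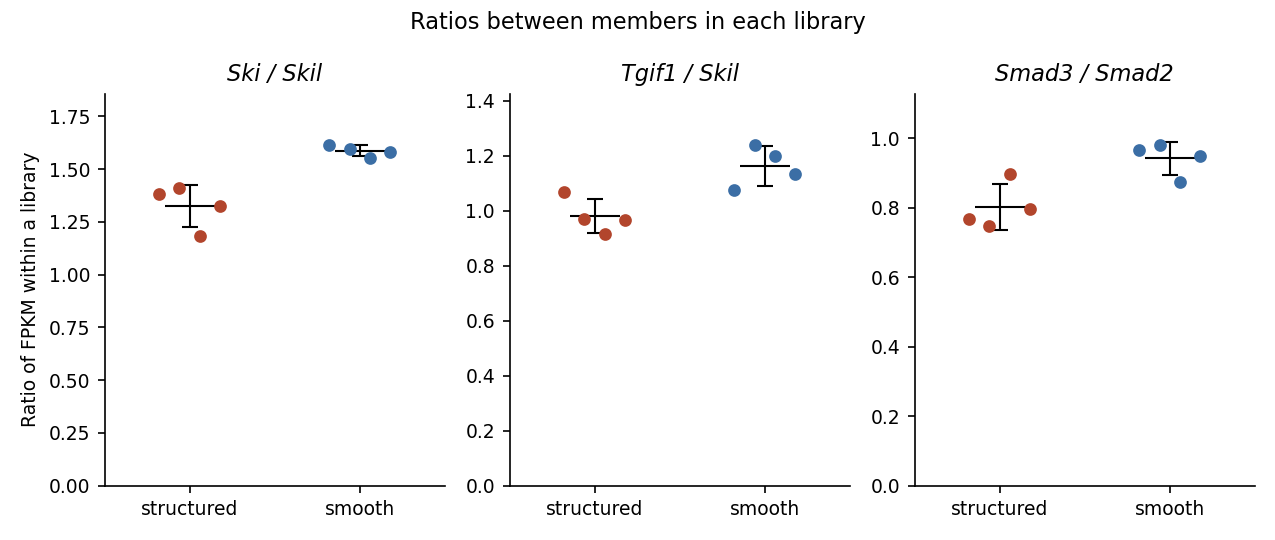
Ratio of the FPKM of 2 members within each library, for Ski over Skil, Tgif1 over Skil and Smad3 over Smad2, with structured PEEK on the left and smooth PEEK on the right; points are libraries and bars the mean and SD (n = 4 per group). The Ski to Skil ratio averaged 1.33 on structured and 1.59 on smooth PEEK, without overlap, and the Smad3 to Smad2 ranges overlapped.

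**Figure D3:**
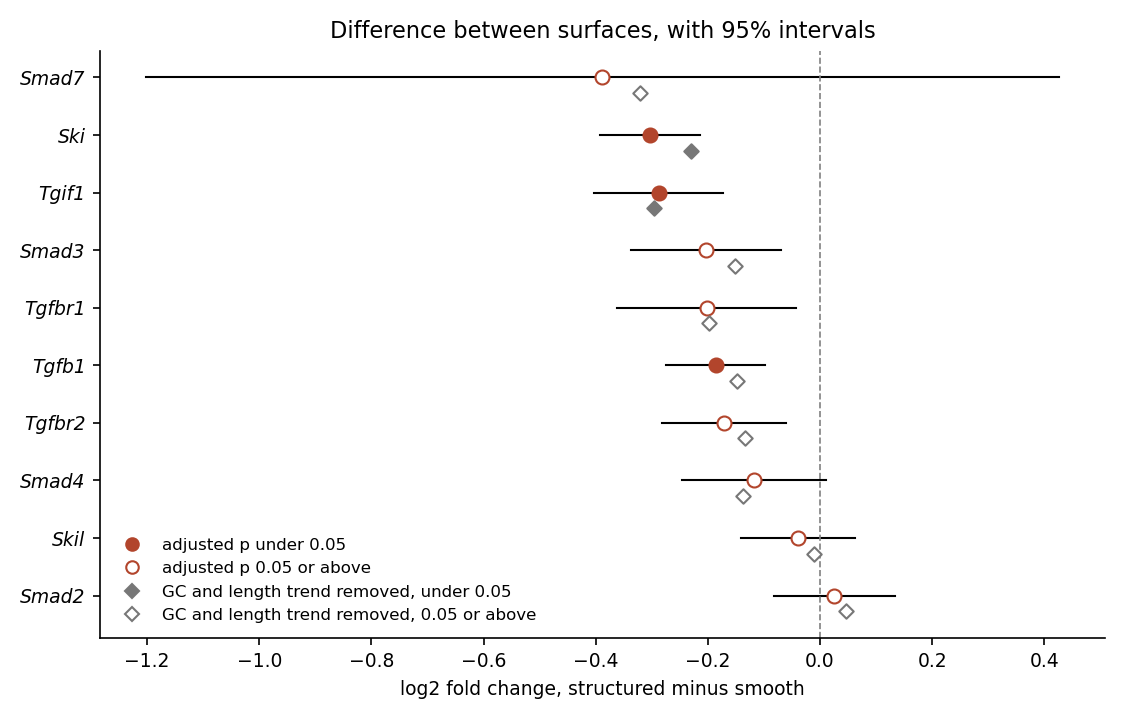
log2 fold change (structured minus smooth) of each member on the horizontal axis, with circles for the edgeR fit, lines for 95% intervals and diamonds for the fit with the GC and length trend removed; filled symbols have an adjusted p under 0.05. Ski and Tgif1 are filled in both fits, and Tgfb1 (-0.19 and -0.15) in the first of these fits alone.

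The promoters of the 3 called members are printed. Each window runs from 250 bases before to 50 after a RefSeq gene start on build GRCm38.p6, on the gene's own strand, 5′ to 3′. Capitals mark CAGAC, the SMAD box, TGTCA, the core bound by TGIF proteins, and GGGCGG, the Sp1 box, on either strand. The windows are chr4:155222486-155222785 for Ski, chr17:70851685-70851984 for Tgif1 and chr7:25686752-25687051 for Tgfb1, and these starts coincide with the table's end for Ski and Tgif1, on the minus strand, and with its start for Tgfb1, on the plus strand.
Ski: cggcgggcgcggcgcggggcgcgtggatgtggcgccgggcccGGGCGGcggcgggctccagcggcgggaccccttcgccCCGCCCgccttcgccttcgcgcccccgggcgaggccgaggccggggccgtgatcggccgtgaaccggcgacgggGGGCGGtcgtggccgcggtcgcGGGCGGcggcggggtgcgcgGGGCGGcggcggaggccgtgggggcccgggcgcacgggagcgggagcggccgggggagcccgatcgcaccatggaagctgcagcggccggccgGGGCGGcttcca
Tgif1: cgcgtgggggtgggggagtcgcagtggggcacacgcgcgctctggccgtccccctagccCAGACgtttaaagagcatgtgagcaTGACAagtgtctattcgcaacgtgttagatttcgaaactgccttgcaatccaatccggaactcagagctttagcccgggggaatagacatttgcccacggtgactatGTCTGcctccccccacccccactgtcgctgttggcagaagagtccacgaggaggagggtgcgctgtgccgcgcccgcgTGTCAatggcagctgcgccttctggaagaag
Tgfb1: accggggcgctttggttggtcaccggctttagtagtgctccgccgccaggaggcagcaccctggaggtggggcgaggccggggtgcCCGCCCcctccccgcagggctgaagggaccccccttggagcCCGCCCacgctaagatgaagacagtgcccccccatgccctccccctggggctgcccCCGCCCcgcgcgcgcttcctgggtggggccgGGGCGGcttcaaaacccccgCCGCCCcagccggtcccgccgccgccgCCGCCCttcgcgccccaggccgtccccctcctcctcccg
The Ski and Tgfb1 windows each held 6 Sp1 boxes and no SMAD box or TGIF core, and their GC contents were 85.3% and 77.0%. The Tgif1 window, at 60.3% GC, held 2 SMAD boxes and 2 TGIF cores and no Sp1 box. Windows were read for 5 of the 10 members, and not for the remaining uncalled members. The windows of Tgfbr1 and Smad3, members that were not called, each held 2 Sp1 boxes and no SMAD box or TGIF core. Their GC contents were 74.7% and 67.7%. None of these matches overlapped another. Of 32817 mouse windows of the same length, 49.6% held a SMAD box, 45.4% a TGIF core and 35.6% an Sp1 box, and the median GC content was 52.7%. Neither TGANTCA, the AP-1 site, present in 7.81% of windows, nor TATAAA, the TATA box, present in 13.6%, occurred in the 3 printed windows. A match describes letters and does not show binding.

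**Figure D4:**
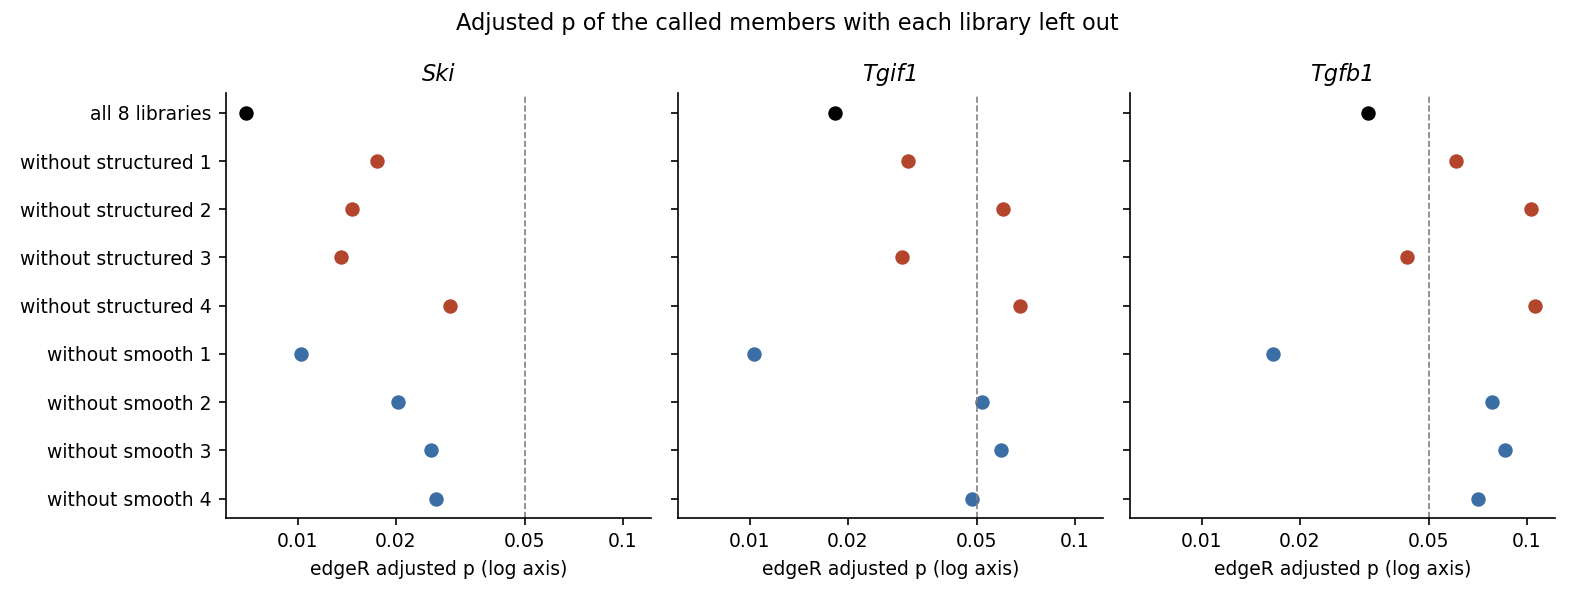
edgeR adjusted p (log axis) of Ski, Tgif1 and Tgfb1 with all 8 libraries (black) and with each structured library (red) or smooth library (blue) left out; the dashed line is at 0.05. Ski stays at or below 0.0293, while Tgif1 reaches 0.0681 and Tgfb1 0.107.

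Set against length, the members kept nearly one order on both surfaces. By FPKM, Tgfb1 led with 37.5 ± 1.08 on structured and 42.5 ± 1.40 on smooth PEEK (SD, n = 4 each). Tgfbr2 followed at 14.3 ± 1.09 and 16.1 ± 0.721 FPKM, and Smad4 at 13.4 ± 0.73 and 14.5 ± 0.805 FPKM, each with structured before smooth. The receptor and Smad4 overlapped on structured PEEK and not on smooth PEEK. Ski averaged 9.52 ± 0.221 FPKM on structured and 11.7 ± 0.29 FPKM on smooth PEEK, apart from its neighbours in both. Below it, Skil, Tgif1 and Smad2 ran from 6.84 to 7.21 FPKM on structured PEEK, where neighbouring ranges overlapped. On smooth PEEK Tgif1 (8.57 ± 0.418 FPKM) stood above Skil (7.38 ± 0.157 FPKM) without overlap, and Smad2 and Smad3 overlapped. Tgfbr1 came next to last, at 4.16 ± 0.324 FPKM on structured and 4.77 ± 0.351 FPKM on smooth PEEK, and Smad7 last, at 0.254 ± 0.0956 and 0.332 ± 0.132 FPKM.

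Across the 8 libraries the members' log2 CPM values were related to different degrees. Pearson's r was 0.98 between Tgfb1 and Tgif1, 0.86 between Ski and Tgif1 and 0.84 between Tgfb1 and Ski, and it was -0.72 between Smad2 and Smad7. Among 7307 other tested genes with a mean of at least 20 CPM, those most like Tgfb1 were Sf3a1, a splicing factor gene (r = 0.99), the nucleotide receptor gene P2ry6 (0.99), Laptm5, a lysosomal membrane protein gene of blood cells (0.99), Hgs, an endosomal sorting gene (0.99), and the semaphorin receptor gene Plxnb2 (0.99). The lowest values were those of Abhd16a (-0.98), Fam133b (-0.96) and Emc6 (-0.96). These are descriptions over 8 points that share libraries, surface and depth, with the extremes taken from many genes.

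The rest of the pathway was read from 7 lists of 152 genes that exclude the members, of which 145 were in the table and 116 were tested. The call went to 7 lower and 3 higher, against 2.75% and 1.01% of all genes tested, and the median log2 fold change was -0.03. Among those called higher, Thbs1 and Tgfbi passed the filter on low counts through the structured libraries. With a minimum count of 50, 1 gene of the lists was called higher. Over all genes, 2999 of 16006 had an unadjusted edgeR p under 0.05. Of 6 tested genes on the list of the wider family's ligands, which includes the protease gene Bmp1, none passed. They had 1 at an unadjusted p under 0.05 and log2 fold changes from -0.76 to 0.79, with a median of -0.19. Gdf15, a stress-induced family member, was the most abundant by FPKM. It was at 0.76 ± 0.192 CPM on structured and 1.29 ± 0.315 CPM on smooth PEEK (edgeR adjusted p = 0.176). Of 9 other receptors none passed, with 1 at an unadjusted p under 0.05, and Bmpr1a, a BMP receptor, had a log2 fold change of 0.09 ± 0.05. Of 3 other tested SMADs none passed and none had an unadjusted p under 0.05, and Smad5, which serves BMP signals, had -0.011 ± 0.054. DESeq2 called no gene of these 3 lists either.

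Of 18 tested genes of latency and activation, 1 fell (Furin) and 1 rose (Thbs1), against 2.75% and 1.01% of all genes tested. Furin, the protease that cuts the TGF-beta propeptide, was at 59.8, 52.9, 55.3 and 55.9 CPM in structured 1 to 4, against 66.8, 68.3, 61.3 and 67.3 CPM in smooth 1 to 4. The groups did not overlap, and the log2 fold change was -0.24 ± 0.05 (edgeR adjusted p = 0.0334). After removal of the trend it was -0.13 (edgeR adjusted p = 0.223), and among the fits that omit one library it was called without structured 1 or without smooth 3 alone. Thbs1, thrombospondin 1, which can release TGF-beta from its propeptide, was at 4.17, 0.635, 1.70 and 2.19 CPM in structured 1 to 4, against 0, 0.226, 0.0931 and 0.152 CPM in smooth 1 to 4. It was highest in structured 1 and low everywhere, and it passed the filter on low counts through the structured libraries. Its log2 fold change of 4.17 ± 0.74 is a fitted value that depends on the prior count, and its call (edgeR adjusted p = 0.0163) was lost without structured 4 or smooth 3. Nrros, which anchors latent TGF-beta 1 on macrophages and was looked at after its values were seen, was at 160 ± 7.07 CPM on structured and 153 ± 8.49 CPM on smooth PEEK (edgeR adjusted p = 0.537).

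Of 42 tested SMAD regulators 3 fell, against 2.75% of all genes tested, and 0 rose, against 1.01%. Pmepa1, a SMAD-induced membrane protein that keeps Smad2 and Smad3 from the receptor, was at 3.72, 4.74, 5.54 and 5.09 CPM in structured 1 to 4, against 8.45, 9.98, 7.46 and 9.56 CPM in smooth 1 to 4. The groups lay far apart, with a log2 fold change of -0.89 ± 0.15 (edgeR adjusted p = 0.0132), and the call held without any one library and after removal of the trend (-0.84, edgeR adjusted p = 0.0258). The paired coactivator genes Crebbp and Ep300, whose acetyltransferases are recruited by SMADs, fell by 0.22 ± 0.05 and 0.23 ± 0.06 on the log2 scale. After removal of the trend Crebbp and Ep300 had -0.13 and -0.15, at edgeR adjusted p-values of 0.286 and 0.118. Omission of any one library ended the call of Crebbp, and of any but structured 1 that of Ep300. In the non-SMAD branch 1 of 18 tested genes fell, against 2.75% of all genes tested. This was the Ras activator gene Sos1, which fell by 0.22 ± 0.05 on the log2 scale (edgeR adjusted p = 0.048). Omission of any library but smooth 2 ended that call, and removal of the trend gave -0.19 (edgeR adjusted p = 0.0713).

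Of 24 tested genes that TGF-beta is known to regulate, 2 rose and 3 fell, against 1.01% and 2.75% of all genes tested. Besides Pmepa1, which is on both lists, Bhlhe40, a repressor of the basic helix-loop-helix family, was at 11.7 ± 1.76 CPM on structured and 18.6 ± 2.35 CPM on smooth PEEK (SD, n = 4 each), without overlap. It fell by 0.66 ± 0.12 on the log2 scale (edgeR adjusted p = 0.0166), a call lost without structured 4 or smooth 3. Cx3cr1, the fractalkine receptor, fell to 153 ± 8.83 CPM on structured PEEK, against 179 ± 4.16 CPM on smooth PEEK (SD, n = 4 each), with an edgeR adjusted p of 0.0238 that was lost without structured 2, structured 4, smooth 2 or smooth 4. Tgfbi, a secreted adhesion protein, rose but was scarce and passed the filter on low counts through the structured libraries, at 0.288, 1.12, 0.611 and 0.605 CPM in structured 1 to 4, against 0.0901, 0.113, 0.202 and 0.0970 CPM in smooth 1 to 4. The call (edgeR adjusted p = 0.0329) was lost without any one library other than structured 1. Id2, an inhibitor of helix-loop-helix factors named after its values were seen, rose by 0.29 ± 0.07 (edgeR adjusted p = 0.04997). That call was lost without any one library other than structured 3 or smooth 1, and removal of the trend gave 0.21 (edgeR adjusted p = 0.153). Both genes that rose lost their call in most fits that omit one library. The KEGG TGF-beta pathway of the deposited annotation gave 51 tested genes besides the members, with a median log2 fold change of 0.0091. Of these, 2 rose, the scarce Thbs1 among them, and 2 fell, against 1.01% and 2.75% of all genes tested.

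**Figure D5:**
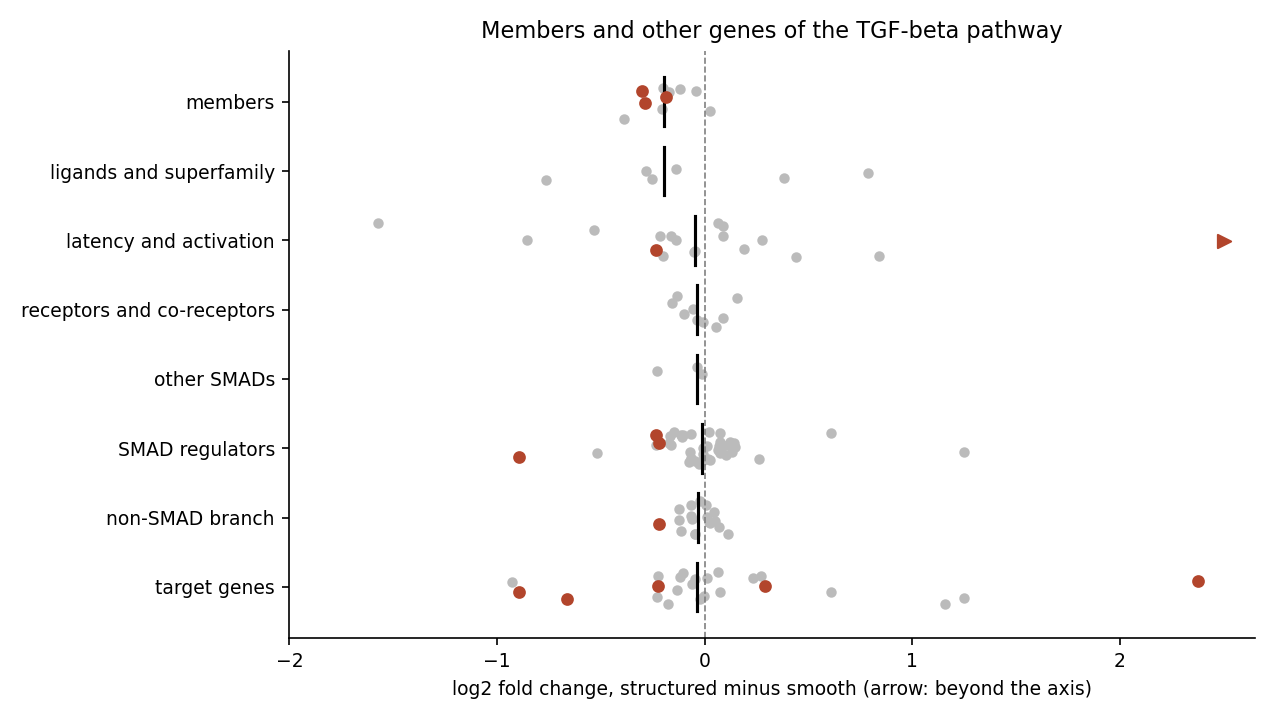
log2 fold change (structured minus smooth, horizontal axis) of each tested gene in the members and in 7 lists of the pathway; red points passed the edgeR adjusted p of 0.05, grey points did not, black bars are medians and the arrow marks Thbs1 at 4.17. The medians of the members and of the 6 tested genes of the ligand list are both -0.19, the latter with values from -0.76 to 0.79. Those of the other lists lie between -0.05 and -0.01.

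Calls over all genes were 73.2% lower. With the GC and length trend removed they were 162 lower and 129 higher (55.7% lower), and with DESeq2 880 lower and 553 higher (61.4% lower). Without structured 3, structured 4 and smooth 1, the libraries highest in hepatocyte markers, the log2 fold changes were -0.28 for Ski, -0.33 for Tgif1 and -0.21 for Tgfb1, and the edgeR adjusted p-values 0.059, 0.056 and 0.0824. Without smooth 1 and smooth 4, the libraries highest in skeletal muscle markers, they were -0.28, -0.35 and -0.22, with edgeR adjusted p-values of 0.0557, 0.0444 and 0.0578. Both fits were chosen after seeing the data. Tgif1 and Tgfb1 had values at least as large as with all libraries, and Ski a slightly smaller one. Tgif1 without smooth 1 and smooth 4 was the only call left. The kept libraries still split by surface in these markers, so neither fit can tell marker from surface. Hepatocyte sums were 92.0 and 112 CPM in structured 1 and 2, against 88.5, 79.6 and 59.6 CPM in smooth 2 to 4. Skeletal muscle sums were at most 7.43 CPM on structured PEEK, against 12.5 and 8.42 CPM in smooth 2 and 3. The part of the markers was not tested.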

How the data were processed

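Messenger RNA of RAW264.7 cells was selected on oligo(dT) beads, marked with dUTP in its second strand and sequenced as read pairs of 150 bases, per the labels' protocols. The submitters' processing notes name cutadapt 1.9, a trimmer, and HISAT2 2.2.1, an aligner. Which program counted, with what strand setting, annotation or build, and whether molecular identifiers were used, is not given in the sources used here. For each gene and library the authors deposited an expected count and FPKM, a level scaled to gene length and depth. The expected counts the authors deposited are whole numbers that pile up at multiples of 4 (32.1% of values from 1 to 40, against 25.3% among larger counts), so 1 fragment may count as about 4 units. Coordinates come from the deposited table; 7 of 10 members had identical coordinates in GENCODE M21 (GRCm38). No overlapping gene above 0.0145 CPM lay at a member.

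Libraries were grouped by title and numbered by library name. Genes past filterByExpr (minimum count 10; 16006 tested, 10842 not) were fitted with edgeR 4.0.16 under R 4.3.3 (TMM, two-sided quasi-likelihood test, structured minus smooth, Benjamini-Hochberg adjustment over all genes tested at 0.05). SE is the fold change over the root of F, and 95% intervals use the fit's degrees of freedom. The steps were tested on simulated data. Members and lists were chosen with earlier results of these data known. Text genes are the members, up to 4 called genes of each list by p or else its most abundant gene, and the genes most and least like Tgfb1; others are marked as seen first. Alternatives were 21 planned settings, with DESeq2 1.42.0, limma 3.58.1 on voom and log2 FPKM, other filters and scalings, a replicate block, GC and exon length trends (99.9% of genes), and libraries left out, plus 2 chosen after seeing the data. The numbers were not taken as pairs in the main fit, because the labels do not say that a number marks a shared culture or day. Same-numbered libraries deviated from their group means with correlations of 0.04 to 0.15, and libraries of unlike number with -0.11 to 0.08. Figures used matplotlib 3.10.9.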

Additional observations from a re-analysis of the deposited data

Results flagged for a closer look

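Among 62 groups of 4 libraries (31 genes on 2 surfaces), 1 held a library far from the others, where chance gives about 1 in 20. Tgfbr1 stood at 25.5 CPM in structured 1, against 29.8 to 30.4 CPM in structured 2 to 4, a gap of 0.881 of the group's range. Without structured 1 the log2 fold change of Tgfbr1 was -0.15 (edgeR adjusted p = 0.316), against -0.20 with all libraries. Structured 1 also held the lowest neutrophil marker level of its group. The source of these marker transcripts and their part in the result were not tested.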

How the results depend on the processing

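Members other than Smad2 kept the sign of their fold change in each alternative that gave an adjusted p (23, and 22 for Smad7). The log2 fold change of Smad2 ranged from -0.012 (without smooth 2) to 0.057 with single libraries left out. DESeq2 gave no adjusted p for Smad7, so that fit is not counted for it. Of the genes outside the members that were chosen by the naming rule or as most like Tgfb1, Smad5 changed sign, with a range of -0.049 to 0.014 with single libraries left out. Members called lower numbered 3, and 1 to 4 with single libraries left out, 5 with DESeq2 (with Tgfbr2 and Smad3 added), 0 without the 3 libraries highest in hepatocyte markers, 1 without the 2 highest in skeletal muscle markers, and 0 with the replicate block and the GC and length trend removed together. Ski was called in 20, Tgif1 in 17 and Tgfb1 in 11 of 23 alternatives; fewer libraries enter some of these fits. With the replicate block alone, where structured 1, 2 and 3 correlated best with their own number (0.037, 0.10 and 0.15) and structured 4 with smooth 1 (0.078, against 0.059 with smooth 4), calls were 374 lower and 125 higher, Tgfb1 had an adjusted p of 0.0524 and Tgfbr2 of 0.0492, and no pathway gene was called higher (0). Without a filter Tgfb1 had an adjusted p of 0.0663.

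Calls over all genes, 440 lower and 161 higher, became 142 and 47 without a filter, 880 and 553 with DESeq2, 124 and 67, 153 and 89, and 122 and 65 with limma on log2 FPKM at pseudocounts of 0.5, 0.1 and 1, 162 lower with the trend removed, 83 and 45 with block and trend removal, 124 and 62 without the hepatocyte-high libraries, 27 and 25 without the muscle-high ones, and 67 to 427 lower and 21 to 170 higher with single libraries left out. Other pathway genes called, 7 lower and 3 higher, became 1 and 0 without a filter, 15 and 6 with DESeq2, 2 and 0 at each FPKM pseudocount, 2 and 0 with block and trend removal, 2 and 1 without the hepatocyte-high libraries, 0 and 0 without the muscle-high ones, and 1 to 6 lower and 0 to 2 higher with single libraries left out. They were 3 lower with the trend removed, 4 lower on library totals, 1 higher with a minimum count of 50 and 0 higher with voom. The causes were not tested. Smad7, Thbs1, Tgfbi and Gdf15 rest on low counts, and intervals cover the spread between these libraries alone.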
